A study of Mus musculus with 24 samples.

Results

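Livers of mice fed phloridzin at 0.5% or 1.0% of the diet were pooled and compared with livers of mice fed the control diet. The comparison used 17 of 24 expression arrays, 11 from the higher doses and 6 from the control diet. All mice were male BALB/c, obtained at 6 weeks of age and fed purified AIN-93G diet for 14 days, with 0.5% or 1.0% phloridzin in the high-dose groups, 0.1% in the group at the lowest dose and none in the control group. The labels give 6 mice per diet and 3 per cage, and no cage is named for an array. The series title asks about blood glucose and hepatic gene expression, and blood glucose was not analysed here.

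The samples of the comparison were chosen from the arrays' own values as well as their labels. Over 1463 bright genes, the SD of the log2 difference between 2 arrays was 0.0436 to 0.137 in 15 pairs of one diet, which were read as the same RNA, and 0.164 or more in the other 121 pairs of the comparison. Arrays of the same RNA were averaged, so the 11 high-dose arrays stood for 4 RNA samples and the 6 control arrays for 4. The high-dose samples were 0.5% replicates 1, 2, 3 and 6, 0.5% replicates 4 and 5, 1.0% replicates 2, 3, 5 and 6, and 1.0% replicate 4. The control samples were replicates 1 and 3, replicates 2 and 4, replicate 5 and replicate 6. Within each diet, values below follow these orders. Replicate 1 at 1.0% was near-identical to 0.1% replicates 1, 3 and 6 (SD 0.0519 to 0.0577 in 6 pairs), and this RNA with the labels of 2 diets entered no comparison. Nothing says that the 8 RNA samples are 8 mice, and the p-values below measure how far these samples spread, which may be technical.

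Phloridzin is a glucoside of apple that blocks the sodium-glucose cotransporters SGLT1 and SGLT2, encoded by Slc5a1 and Slc5a2. SGLT2 takes glucose back from the filtrate in the kidney and SGLT1 takes up glucose in the intestine, while hepatocytes exchange glucose mainly through the facilitative carrier GLUT2, encoded by Slc2a2. The liver answers changes in glucose and insulin through transcription, with FOXO factors driving gluconeogenic genes when insulin is low and SREBP-1c and ChREBP driving lipid synthesis when carbohydrate is plentiful.

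Each array gave a linear intensity for 45101 probe sets. Array medians ran from 11.2 to 17.1 at the higher doses and from 14.1 to 18.0 in the control group, so the arrays were quantile-normalized before the comparison. Signals are on a log2 scale with a floor at 3.00, which held 5.40% of the values of the tested genes at the higher doses and 5.24% in the control group. Hepatocyte markers were bright, as in Alb at 13.52 at the higher doses and 13.47 in control liver (mean log2): 10 of 12 were measured, with differences of -0.24 to 0.21 between the groups and 0 with an unadjusted p under 0.05. On the first principal component of the 8 RNA samples (23.6% of the variance), control replicates 5 and 6 stood apart at 28.46 and 24.40, while the high-dose samples lay at -18.63 to -4.95 and the other control samples at -4.13 and -1.31. The 3' minus 5' signal of Gapdh, a sign of RNA integrity, averaged -0.25 ± 0.09 at the higher doses and -0.34 ± 0.04 in control liver (SD, n = 4 each; exact permutation p = 0.171, two-sided). Poly-A controls, which are added to RNA before labelling, averaged -3.86 ± 0.82 relative to hybridisation controls on the log2 scale at the higher doses and -2.89 ± 0.33 in control liver. All 4 high-dose samples were below all 4 control samples in this ratio (two-sided exact permutation p = 0.0286, the smallest that 70 splits can give), and its part in the results was not tested.

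Of 13110 genes tested, 3 differed between the higher doses and control, which is 0.0229%. Rbmxl2 fell, and Slc35a2 and Tspan32 rose. Rbmxl2 encodes an RNA-binding protein of the hnRNP G family known from male germ cells. Its log2 signal was 3.00, 3.00, 3.13 and 3.00 in the high-dose samples and 5.01, 5.50, 4.56 and 5.32 in the control samples. In 3 of 4 high-dose samples it was thus at the floor, and the groups did not overlap. The difference was -2.06 ± 0.23 (log2, SE), a 4.17-fold fall on the floored scale (limma adjusted p = 0.00693). Because the high-dose samples lie at the floor, the size of the fall moved with it, to -3.01 with a floor at an intensity of 1, to -1.09 with a floor at 16 (limma adjusted p = 0.234) and to -0.23 with a floor at 32 (limma adjusted p = 0.452). Without control replicates 2 and 4 the adjusted p was 0.0502.

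Slc35a2 encodes the transporter that carries UDP-galactose into the Golgi for glycan synthesis. Its log2 signal was 7.36, 7.52, 7.39 and 7.11 in the high-dose samples and 6.57, 6.30, 5.83 and 6.37 in the control samples. The highest of the 6 control arrays stood at 6.63 and all 11 high-dose arrays were above it. These arrays are read as repeats of the same 8 RNA samples, so they add no replicates to the comparison. The rise was 1.08 ± 0.16 (log2, SE), or 2.12-fold (limma adjusted p = 0.0468). Omitting 1 of the 8 RNA samples at a time, the call was kept in 3 runs and lost in the rest (limma adjusted p up to 0.174).

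Tspan32 encodes a tetraspanin known from blood cells. Its log2 signal was 6.41, 6.93, 6.65 and 6.66 in the high-dose samples, all above the control samples at 5.64, 5.52, 5.87 and 5.66. The rise was 0.99 ± 0.14 (log2, SE), or 1.98-fold (limma adjusted p = 0.0468). Single arrays spread more than the averages show: 0.5% replicates 1, 2, 3 and 6, read as 1 RNA, gave 6.86, 5.74, 6.14 and 6.89, and the second of these lies within the control range. These values split along near-identical pairs, replicates 1 and 6 (SD 0.0563) and replicates 2 and 3 (SD 0.0485), with 0.136 to 0.137 between the pairs. Whether the pairs are 1 RNA or 2 was not tested. The call was kept in 2 of the same 8 runs (limma adjusted p up to 0.174). Whether Tspan32 and other blood cell transcripts differ through the number of such cells or the RNA in each cell cannot be told apart in bulk liver. Markers of T and NK cells were 1 higher and 3 lower of 4 measured, with 11 of the list not measured, and those of B and plasma cells 3 higher and 5 lower of 8.

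**Figure D1:**
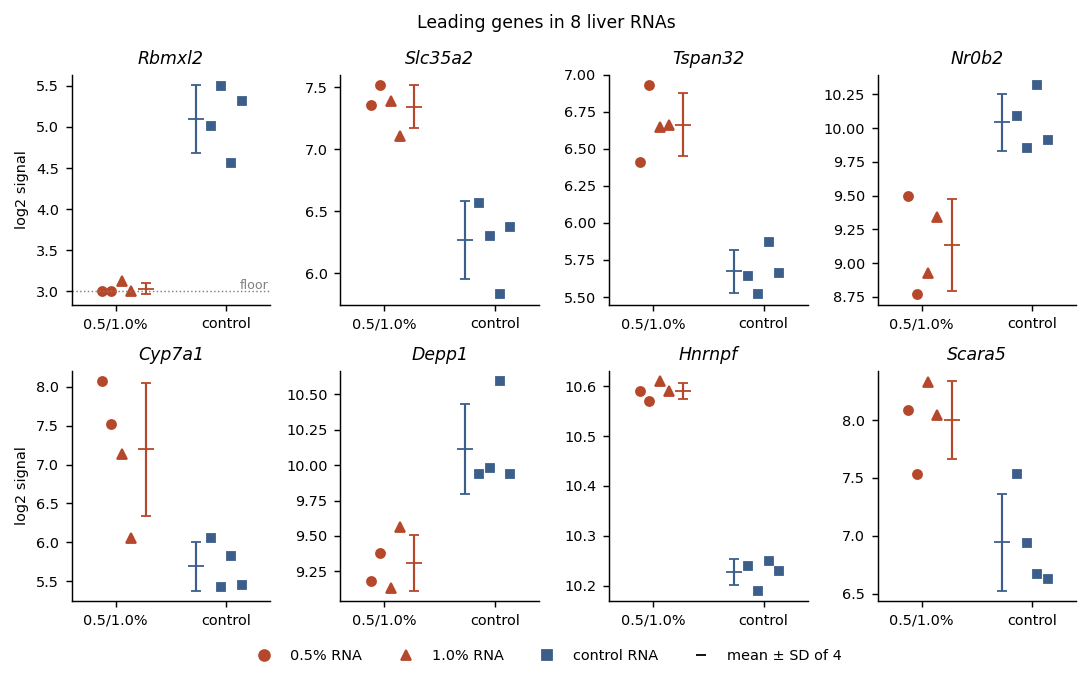
Log2 signal of 8 genes in the 4 high-dose RNA samples (left; circles for 0.5%, triangles for 1.0%) and the 4 control RNA samples (right, squares), with the mean ± SD of each group beside the points. Rbmxl2, Slc35a2 and Tspan32 passed the test over all genes. The groups also do not overlap in Nr0b2, Depp1 and Hnrnpf, while 1.0% replicate 4 lies within the control range in Cyp7a1 and 1 high-dose and 1 control sample meet at 7.53 in Scara5.

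Around these calls lay many smaller differences. An unadjusted p under 0.05 was found for 683 genes with a higher mean at the higher doses (5.21%) and 676 with a lower one (5.16%), 10.4% of all genes together. All 4 high-dose samples were above all 4 control samples in 350 genes (2.67%) and below them in 442 (3.37%). The median difference over all genes was -0.01, and 47.3% of all genes had a higher value at the higher doses. Apart from Rbmxl2, Slc35a2 and Tspan32, none of the genes named below passed the adjustment over all genes in this comparison, and their values are given as measurements.

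The balance of directions depended on the scaling of the arrays. With arrays centred on their medians in place of quantile normalization, the median of all genes moved to -0.15, 346 genes were called (14 higher, 332 lower) and the genes with an unadjusted p under 0.05 split into 240 higher and 2802 lower. With no scaling between arrays the median moved to -0.28, and the split was 75 higher against 2879 lower. Of those with an unadjusted p under 0.05, 50.3% were higher after quantile normalization, against 7.89% after centring and 2.54% with no scaling. Counts of higher and lower members of a gene group move with the scaling too. Those given below are after quantile normalization, to be read beside the median of all genes (-0.01) and the 47.3% of all genes that were higher.

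**Figure D2:**
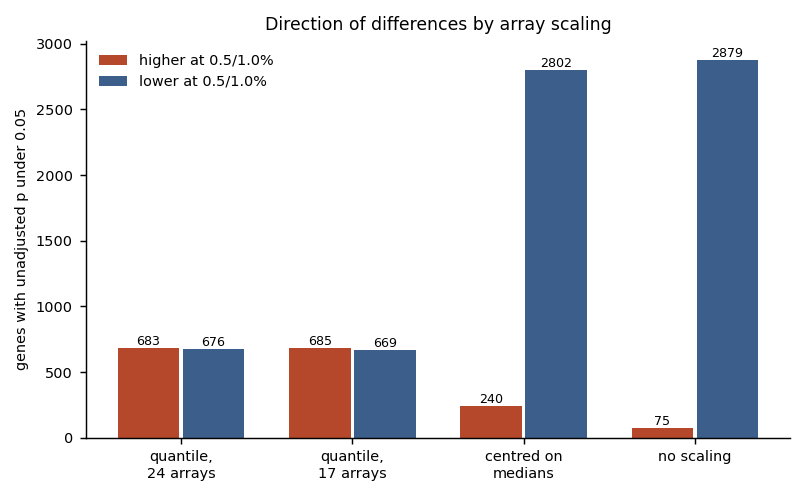
Number of genes with an unadjusted p under 0.05 that were higher (left bar of each pair) or lower (right bar) at the higher doses than in control liver, under 4 scalings of the arrays. The counts are nearly equal after quantile normalization over 24 or 17 arrays, and lower genes dominate after centring on medians (2802 against 240) or with no scaling (2879 against 75).

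The probe sets of a gene did not always move together. Each gene was represented by its brightest probe set, and 17 of the 24 leading genes had at least 1 other probe set above the filter on dim signals. Of those 35 other probe sets, 27 shared the direction of the one used and 13 had a difference at least 50% as large. Slc35a2 rested on 1 of 5 such probe sets, with the others at -0.29, -0.14, 0.06 and 0.09, and the mean of its probe sets gave 0.16 (limma adjusted p = 0.669). Rbmxl2 and Tspan32 each had a single probe set above the filter, and a second, dim one of Tspan32 averaged 3.00 at the higher doses and 3.06 in control liver. Hnrnpf, a splicing regulator that binds G-rich RNA, had very tight values in its brightest probe set, 10.59, 10.57, 10.61 and 10.59 at the higher doses against 10.24, 10.19, 10.25 and 10.23 in control liver. Its difference of 0.36 and that of a second probe set, 0.39, both come from probe sets marked x, which share probes with other transcripts, while the 2 others gave -0.04 and -0.08. Its direction turned when probe sets marked x or s were left out and with no scaling between arrays.

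**Figure D3:**
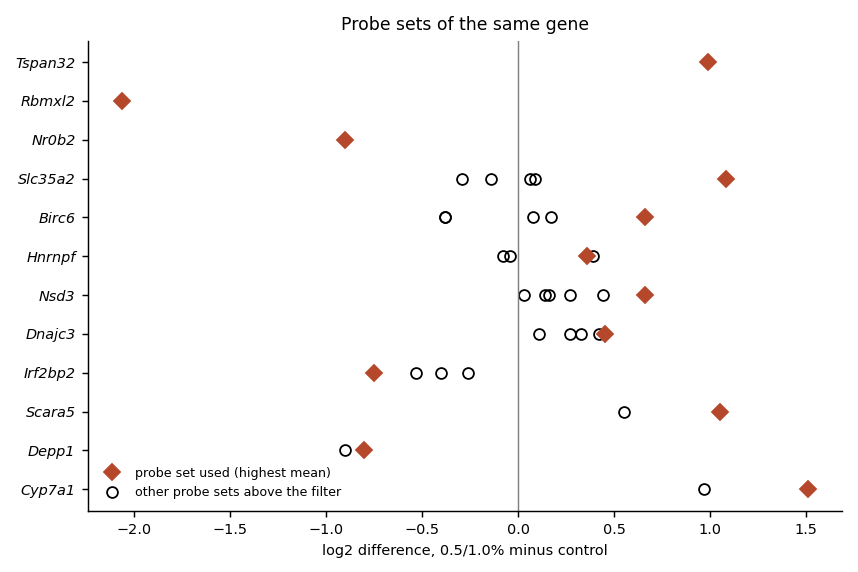
Log2 difference, higher doses minus control, of every probe set above the filter for 12 genes; filled diamonds are the probe sets used and open circles the others. The other probe sets of Slc35a2 lie near 0, from -0.29 to 0.09, while those of Depp1 (-0.90) and Cyp7a1 (0.97) lie on the side of the probe set used.

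Bile acid and sterol genes showed no shared shift: of 18 measured, 7 were higher and 11 lower with a median of -0.02. Nr0b2, the only one of them among the 24 leading genes, encodes SHP, the nuclear receptor that represses Cyp7a1 when bile acids return to the liver. Its log2 signal was 9.50, 8.77, 8.93 and 9.34 in the high-dose samples and 10.09, 9.85, 10.32 and 9.91 in the control samples. Every high-dose sample was below every control sample, with a difference of -0.90 ± 0.15 (log2, SE; limma adjusted p = 0.109). The direction was the same in all 27 alternative settings, with values from -1.26 to -0.78. These settings reuse the same RNA samples, and with the groups apart, leaving 1 sample out could not turn the direction. Nr0b2 passed the test in 1 of 8 runs that left a sample out, the one without 0.5% replicates 1, 2, 3 and 6 (-1.03). The others did not pass (limma adjusted p up to 0.289).

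Cyp7a1 encodes the rate-limiting enzyme of the classical bile acid pathway. Its log2 signal was 8.07, 7.52, 7.14 and 6.05 in the high-dose samples and 6.06, 5.42, 5.83 and 5.45 in the control samples. The 3 higher values stood clear of control liver, and 1.0% replicate 4 overlapped it. The difference of 1.51 ± 0.32 (log2, SE) had a limma adjusted p of 0.213. Without 1.0% replicate 4, the overlapping sample, it was 1.89 and passed the test (limma adjusted p = 0.0185). That was 1 of 8 runs that left a sample out, and the others did not pass (limma adjusted p up to 0.382). The exporter Abcc3 stood at -0.42 and the organic anion carrier Slco1a1 at 0.42, while Cyp8b1 (-0.02), Cyp27a1 (0.03), the bile acid sensor Nr1h4 (0.03) and the importer Slc10a1 (0.03) were close to 0.

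The direct targets of phloridzin were dim in liver. Slc5a1 averaged 3.65 ± 0.39 at the higher doses and 3.23 ± 0.26 in control liver (log2, SD, n = 4 each), with 2 control samples at the floor. Slc5a2 averaged 4.82 ± 0.31 at the higher doses and 4.73 ± 0.48 in control liver. Slc2a2 was bright, at 11.01, 11.48, 11.38 and 11.38 in the high-dose samples and 11.55, 11.44, 11.21 and 11.33 in the control samples, and the ranges overlapped. Of 11 sugar carriers measured, 5 were higher and 6 lower with a median of -0.07, and 1 had an unadjusted p under 0.05, beside 10.4% of all genes. That one was Slc2a9, a urate and hexose carrier, at -0.47 ± 0.16 (log2, SE).

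Genes of gluconeogenesis showed no shared shift. Of 10 measured, 5 were higher and 5 lower, with a median of -0.01, within 0.01 of that of all genes. The sign of that distance turned with the scaling. G6pc, which releases free glucose, had signals of 11.14, 10.62, 10.20 and 11.23 in the high-dose samples and 11.16, 11.13, 10.89 and 11.12 in the control samples. Thus 2 high-dose samples were below all control samples, 1 was within their range and 1 was above it. Pck1, which makes phosphoenolpyruvate, differed by -0.15 ± 0.17 and the coactivator gene Ppargc1a by 0.47 ± 0.19 (log2, SE). Pyruvate carboxylase, Pcx, differed by -0.19 ± 0.08, with no overlap between the groups. Glycolytic genes were 3 higher and 7 lower of 10 measured.

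Genes that respond to insulin and FOXO were mostly lower in value, 10 of 14, with a median of -0.06, beside -0.01 for all genes. The list's scores were -0.28 to -0.08 in the high-dose samples and -0.03 to 0.02 in the control samples, without overlap. A score is a mean over the 14 members, whose differences ran from -1.18 to 0.29, and the lowest member, Igfbp1, weighs on it. Whether the scores stay apart without Igfbp1 was not tested. An unadjusted p under 0.05 was found for 1 higher and 1 lower member, beside 10.4% of all genes. Igfbp1, an IGF-binding protein gene that insulin represses, averaged 7.75 ± 0.87 at the higher doses and 8.93 ± 0.62 in control liver (log2, SD, n = 4 each). The first high-dose sample lay within the control range of 8.16 to 9.52 and the other 3, at 6.97 to 7.52, below it, for a difference of -1.18 ± 0.37 (log2, SE; limma adjusted p = 0.311). Depp1, a FOXO target outside this list, had signals of 9.18, 9.38, 9.13 and 9.56 in the high-dose samples and 9.94, 9.98, 10.59 and 9.94 in the control samples. All high-dose values were below all control values, and the difference was -0.80 ± 0.14 (log2, SE; limma adjusted p = 0.109) in this probe set and -0.90 in the other.

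Lipid genes differed by pathway. Of 20 cholesterol synthesis and uptake genes, 15 were higher and 5 lower with a median of 0.15, beside -0.01 for all genes. Relative to all genes this list stood at 0.16 after quantile normalization, 0.10 after centring and 0.09 with no scaling, where its own median was negative under the last 2 scalings (-0.05 and -0.18). Only Dhcr7, the last enzyme of the pathway, had an unadjusted p under 0.05. That is 1 of 20, near the 5.21% of all genes that were higher at this cut. Its signals were 8.90, 8.80, 8.76 and 8.84 in the high-dose samples and 8.12, 8.12, 7.99 and 8.79 in the control samples. Control replicate 6 lay within the high-dose range, and the list's score in that sample (0.38) exceeded those of all high-dose samples (-0.07 to 0.33). Fatty acid synthesis genes were 11 higher and 9 lower of 20, and their median relative to all genes changed sign under centring (0.06 against -0.05). Srebf1 itself differed by -0.13 ± 0.17 (log2, SE), while Acacb, which makes malonyl-CoA at mitochondria, stood at 0.61 ± 0.17 and Acss2, an acetyl-CoA synthetase, at 0.49 ± 0.16.

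Fatty acid oxidation genes controlled by PPARA were 5 higher and 20 lower of 25 measured, with a median of -0.12. An unadjusted p under 0.05 was found for 5 of the lower ones, beside 5.16% of all genes. Creb3l3, a liver transcription factor that acts with PPARA in fasting, had 10.72, 10.94, 10.72 and 10.71 in the high-dose samples and 11.07, 10.94, 11.03 and 10.99 in the control samples. The ranges touched at the second sample of each group without crossing. Acaa1b, a peroxisomal thiolase gene, differed by -0.28 ± 0.10 (log2, SE). Both subunits of the mitochondrial trifunctional protein were measured, Hadha at -0.23 and Hadhb at 0.33, on opposite sides of 0. Over the list, 1.0% replicates 2, 3, 5 and 6 scored -0.31 and 0.5% replicates 4 and 5 scored 0.04, against -0.06 to 0.07 in control samples.

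**Figure D4:**
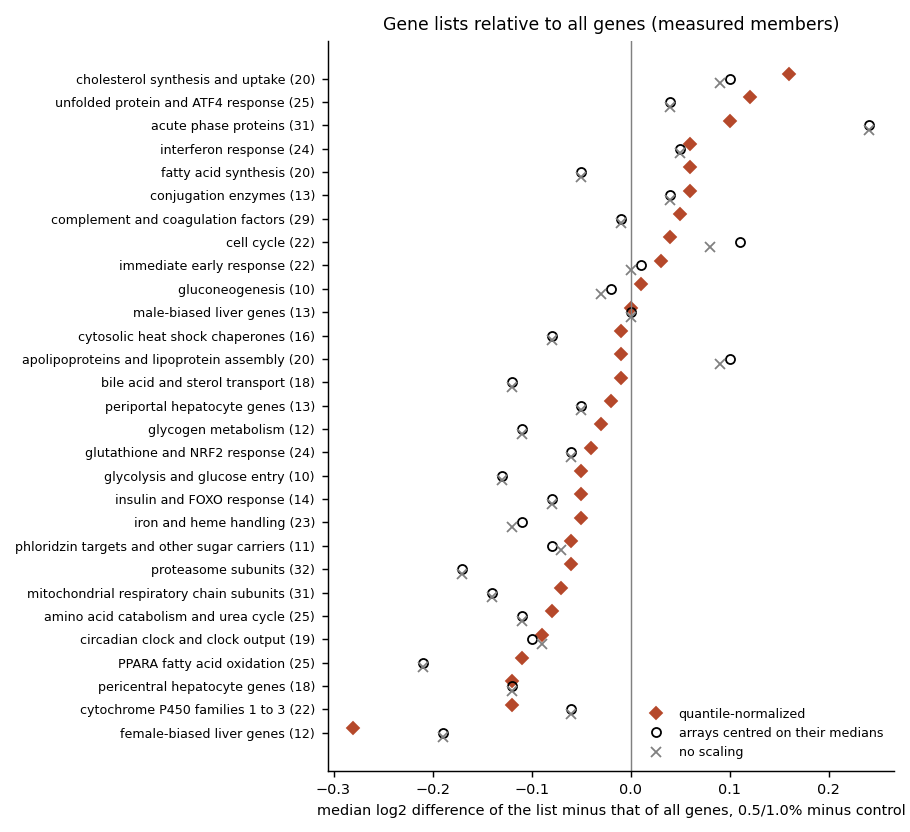
Median log2 difference of each of 29 gene lists, higher doses minus control, after subtraction of the median of all genes, under 3 scalings of the arrays; measured members are in brackets. Among the lists on one side of 0 under all 3 scalings, cholesterol synthesis, unfolded protein response and acute phase genes lie right of it. Female-biased liver genes, furthest left after quantile normalization (-0.28), and PPARA oxidation, respiratory chain, pericentral and cytochrome P450 genes lie left of it. Fatty acid synthesis, complement, gluconeogenesis and apolipoprotein genes change side with the scaling.

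Subunits of the respiratory chain had small differences in one direction. Of 31 measured, 26 were lower and 5 higher, with a median of -0.09 and a range of -0.40 to 0.09. The list's score was -0.11, -0.11, -0.08 and -0.08 in the high-dose samples and -0.05, -0.01, 0.00 and 0.05 in the control samples. The groups did not overlap, as in the insulin and FOXO list, and they overlapped in every other list of the 41. No p is given because members are not replicates. Gene by gene, 2 of the 31 had all high-dose samples below all control samples, beside 3.37% of all genes. Atp5d, the delta subunit of ATP synthase, stood lowest, with 11.80, 11.61, 11.60 and 11.55 in the high-dose samples and 11.89, 12.05, 12.01 and 12.22 in the control samples. Its difference of -0.40 ± 0.08 (log2, SE) had a limma adjusted p of 0.213, and its other probe set gave -0.03. Complex I genes Ndufs8 (-0.26), Ndufv1 (-0.19), Ndufa9 (-0.17) and Ndufb5 (-0.15) also had unadjusted p-values under 0.05. That made 5 of 31, all lower, beside 5.16% of all genes. The 5 other probe sets of Ndufs8 gave -0.14, 0.31, -0.02, -0.10 and -0.06. Proteasome subunits were 24 lower and 8 higher of 32 with a median of -0.08. All high-dose samples were below all control samples in 3 of them, beside 3.37% of all genes. The base subunits Psmc1 (-0.25) and Psmd4 (-0.24) were among these. The proteasome list's score reached -0.21 in 0.5% replicates 4 and 5, against -0.06 to -0.02 in the other high-dose samples and -0.04 to 0.04 in control samples.

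Cytochrome P450 genes of families 1 to 3, which oxidise drugs, steroids and plant compounds, were 15 lower and 7 higher of 22 with a median of -0.14. The list's scores were -0.26, -0.03, -0.24 and -0.32 in the high-dose samples and -0.16, -0.03, 0.14 and 0.05 in the control samples, so the groups overlapped and control replicates 5 and 6 were the highest. An unadjusted p under 0.05 was found for 6, all lower (5.16% of all genes), and 4 genes had all high-dose samples below all control samples, beside 3.37% of all genes. Cyp2d9 had 12.67, 12.72, 12.72 and 12.73 in the high-dose samples and 12.94, 12.91, 12.97 and 12.86 in the control samples, a difference of -0.21 ± 0.06 (log2, SE) between tight groups. Cyp2b10, a target of the receptor CAR, averaged 3.36 ± 0.34 at the higher doses and 4.86 ± 1.01 in control liver (SD, n = 4 each), with 1 high-dose sample at the floor. Cyp1a1 (-0.85) and Cyp1a2 (-0.38), targets of the aryl hydrocarbon receptor, and Cyp3a11 (-0.20), a target of PXR, were also below 0. The sulfotransferase gene Sult1d1 went the other way, with 9.54, 9.81, 9.60 and 9.62 in the high-dose samples and 9.17, 9.17, 9.38 and 9.32 in the control samples. In amino acid catabolism, 18 of 25 genes were lower with a median of -0.10, and Cth, which makes cysteine from cystathionine, differed by -0.28 ± 0.08 with no overlap. Uroc1, which acts after Hal in histidine breakdown, stood at 0.64 ± 0.19 while Hal stood at -0.18 ± 0.07 (log2, SE), and the direction of Uroc1 turned when probe sets marked x or s were left out.

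Endoplasmic reticulum chaperones and other targets of the unfolded protein and ATF4 responses were 17 higher and 8 lower of 25 with a median of 0.10. Dnajc3, a co-chaperone of the endoplasmic reticulum that also inhibits the kinase PERK, had 9.72, 9.68, 9.96 and 9.84 in the high-dose samples and 9.45, 9.42, 9.31 and 9.22 in the control samples. The groups were apart, the difference was 0.45 ± 0.09 (log2, SE; limma adjusted p = 0.161), and 4 other probe sets gave 0.11 to 0.42. Hsp90b1, which encodes the chaperone GRP94, differed by 0.45 ± 0.13 (log2, SE). Herpud1, a component of the degradation machinery of the endoplasmic reticulum, stood at -0.91, and the chaperone gene Dnajb9 at -0.54, so the list did not move as one. The ATF4 targets Chac1 (-0.55), Ddit3 (-0.36) and Asns (-0.22) were below 0 and Atf4 itself stood at 0.04.

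The list contains genes known to be switched on through the endoplasmic reticulum stress element, bound by ATF6 with NF-Y, and the 2 promoters below are shown because their genes had the lowest p-values of the list. They are the 250 bases before the start site on the gene's strand, from RefSeq (GRCm38.p6), at chr14:118937682-118937931 (plus strand) for Dnajc3 and chr10:86705445-86705694 (minus strand) for Hsp90b1. Capitals mark matches, on either strand, to the element's letters: CCAAT, 9 bases of any kind and CCACG. The 2 matches in Hsp90b1 do not overlap.
Dnajc3: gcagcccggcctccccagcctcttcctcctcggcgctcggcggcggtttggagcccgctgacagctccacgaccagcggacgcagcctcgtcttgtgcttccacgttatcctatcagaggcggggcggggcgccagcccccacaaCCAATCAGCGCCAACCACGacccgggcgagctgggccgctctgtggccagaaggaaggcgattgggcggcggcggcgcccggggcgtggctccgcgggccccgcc
Hsp90b1: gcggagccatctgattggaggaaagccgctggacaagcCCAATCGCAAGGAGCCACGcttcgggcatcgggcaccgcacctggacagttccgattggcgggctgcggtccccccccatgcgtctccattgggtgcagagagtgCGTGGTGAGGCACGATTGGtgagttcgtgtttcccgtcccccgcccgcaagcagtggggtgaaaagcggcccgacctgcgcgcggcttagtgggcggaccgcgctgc
Dnajc3 held 1 match and Hsp90b1 held 2, one on each strand. In windows of 250 bases before to 50 bases after the start, the element was in 0.119% of 32851 promoters and in 8 of the 22 list members with a promoter entry. Of these 8 genes, which include the 2 picked for their low p-values, 7 were higher and 1 lower in value, and of the 14 without a match 7 were higher and 7 lower. The difference between these splits was not tested. Creld2 stood at 0.59, Dnajc3 and Hsp90b1 at 0.45, Syvn1 at 0.27, Hspa5 at 0.23, Canx at 0.10, Pdia6 at 0.06 and Calr at -0.02. A match describes the letters of the window and not binding.

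Cytosolic heat shock genes were split, 8 higher and 8 lower of 16. Hspa1b, an inducible HSP70 gene, had 9.65, 9.04, 8.15 and 8.79 in the high-dose samples and 9.68, 9.29, 11.97 and 10.69 in the control samples. Control replicates 5 and 6 were the high ones, and the others overlapped. Its near-identical neighbour Hspa1a stood at -1.38, and array probes may not separate the pair. Hsp90aa1, the inducible HSP90, went the other way, with 11.09, 11.02, 11.97 and 11.48 in the high-dose samples and 10.99, 10.81, 10.57 and 10.30 in the control samples, and a difference of 0.72 ± 0.19 (log2, SE; limma adjusted p = 0.245).

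The acute phase list holds genes that the liver raises in inflammation, and also Alb, Ttr and Apoa1, which fall in it. Of 31 measured, 23 were higher and 8 lower with a median of 0.09. An unadjusted p under 0.05 was found for 7, all higher, beside 5.21% of all genes. Saa2, serum amyloid A2, averaged 10.56 ± 2.02 at the higher doses and 7.90 ± 0.44 in control liver (log2, SD, n = 4 each). Its only probe set is marked x, so the signal may include other transcripts. The first high-dose sample was highest, the next 2 stood at 10.15 and 10.96, and 1.0% replicate 4, at 8.13, lay within the control range, for a difference of 2.66 ± 0.70 (log2, SE; limma adjusted p = 0.252). It was 1.85 without the first sample, and 3.47 without 1.0% replicate 4, where it passed the test (limma adjusted p = 0.0491). That was 1 of 8 runs that left a sample out, and the others did not pass (limma adjusted p up to 0.445). Orm2, an orosomucoid gene, had its highest and lowest high-dose values in the same samples, with 10.64, 7.38, 7.60 and 6.07 at the higher doses against 6.14, 6.01, 5.95 and 6.00 in control liver. The list's score was 0.86, 0.29, 0.28 and -0.01 in the high-dose samples and -0.10 to 0.04 in the control samples. Hp (0.09), Hpx (0.10) and Serpina3n (0.00), other inflammatory liver genes, were near 0.

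Clock genes set the same first high-dose sample apart. Dbp, a clock output gene, stood at 5.24 in 0.5% replicates 1, 2, 3 and 6, against 10.62, 10.10 and 9.76 in the other high-dose samples and 9.87, 9.86, 7.93 and 7.63 in the control samples. The clock repressor gene Nr1d1 stood at 3.56 in that sample, against 5.51, 6.44 and 6.49 in the other high-dose samples and 6.46 to 6.69 in the control samples. The clock list's score was -0.69 in that sample and -0.02 to 0.13 in the other high-dose samples, against -0.15 to 0.16 in the control samples. Its median of -0.11 turned above that of all genes without that sample. The time of day at which each liver was taken is not given in the sources used here, and its part in these values was not tested.

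**Figure D5:**
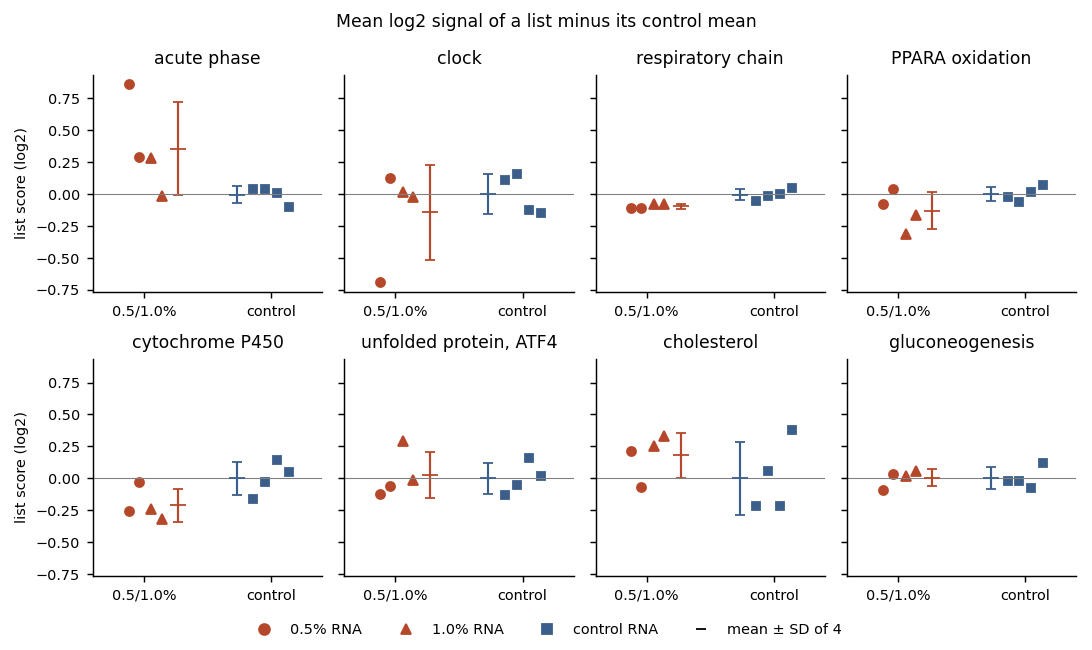
Score of 8 gene lists (mean log2 signal of the members minus the control mean) in the 4 high-dose RNA samples (left; circles for 0.5%, triangles for 1.0%) and the 4 control RNA samples (right, squares), with mean ± SD. One 0.5% sample stands apart in the acute phase (0.86) and clock (-0.69) scores, and the respiratory chain scores of the groups do not overlap (-0.11 to -0.08 against -0.05 to 0.05).

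Among the remaining leading genes, Scara5, a ferritin receptor gene, had 8.09, 7.53, 8.33 and 8.04 in the high-dose samples and 7.53, 6.94, 6.67 and 6.63 in the control samples. The difference was 1.05 ± 0.20 (log2, SE; limma adjusted p = 0.161), and a second probe set gave 0.55. The direction held in all 27 alternative settings, which reuse the same RNA samples. Without control replicates 1 and 3 it was 1.25 and passed the test (limma adjusted p = 0.0307). That was 1 of 8 runs that left a sample out, and the others did not pass (limma adjusted p up to 0.354). Nsd3, a histone H3 lysine methyltransferase gene, differed by 0.66 ± 0.13 with no overlap, and its 5 other probe sets gave 0.03 to 0.44. Pdzk1, which encodes a scaffold that holds the HDL receptor SR-BI at the hepatocyte surface, had 8.25, 8.33, 8.23 and 8.48 in the high-dose samples and 8.72, 8.72, 8.83 and 8.81 in the control samples, with a single probe set. Vamp7, a SNARE of vesicle fusion, stood at 0.49 ± 0.09, and Birc6, a ubiquitin ligase of the inhibitor of apoptosis family, at 0.66 ± 0.12 with its 4 other probe sets at -0.38 to 0.17. The replication genes Mcm2 (1.14 ± 0.26) and Ccne1 (0.87 ± 0.20) had no overlap between groups, although the cell cycle list as a whole was 11 higher and 11 lower of 22 (log2, SE). Both values come from probe sets marked x or s. Without such probe sets the direction of Mcm2 turned, and Ccne1 stood at 0.13 with overlapping groups.

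The other genes with the lowest p-values had no overlap between the groups, which picking genes by a low p in the same samples favours. Over all genes, 2.67% were higher and 3.37% lower without overlap. Higher in value were Sh3bgrl (0.53 ± 0.09), whose other 2 probe sets gave 0.32 and 0.43, Hars (0.50 ± 0.10), the histidyl-tRNA synthetase gene, with another probe set at -0.02, and B230308N11Rik (0.71 ± 0.12), with another at 0.15. Nmrk1, which phosphorylates nicotinamide riboside for NAD synthesis, stood at 0.88 ± 0.17, and its other probe set at 0.63. Lower in value were Rab40c (-0.60 ± 0.11), a small GTPase gene, Irf2bp2 (-0.75 ± 0.16), a transcriptional repressor gene with 3 other probe sets at -0.53 to -0.26, and Rapgef2 (-0.44 ± 0.10), an exchange factor for Rap GTPases. The remaining ones were dim: Rhbdd2 averaged 3.47 ± 0.55 at the higher doses and 4.94 ± 0.49 in control liver, and Smn1 averaged 3.87 ± 0.68 at the higher doses and 5.16 ± 0.20 in control liver (log2, SD, n = 4 each). Dhx38 stood at -1.06 ± 0.24, and Magea7-ps at -1.24 ± 0.26 with 3 high-dose samples at the floor (log2, SE). Another probe set of Rhbdd2 went the other way (0.18), and with a floor at 32 all values of Dhx38 lay at the floor.

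Markers of other liver cells were close between the groups for most lists. Kupffer cell markers were 4 higher and 9 lower of 13, with scores of -0.11 to 0.04 at the higher doses and -0.05 to 0.10 in control liver. Sinusoidal endothelial markers had scores of -0.04 to 0.00 at the higher doses and -0.05 to 0.04 in control liver. Neutrophil markers were 6 higher and 3 lower of 9, with a score of 0.79 in 0.5% replicates 4 and 5 against -0.01 to 0.12 in the other high-dose samples and -0.11 to 0.18 in control liver. Cholangiocyte markers were 4 higher and 2 lower of 6, with scores of 0.07 to 0.37 at the higher doses and -0.12 to 0.10 in control liver; Krt7, Spp1, Cftr and Cldn7 were not measured. The part of these cells in the calls above was not tested.

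The pooled doses were also compared with each other and with 0.1%. Between 1.0% and 0.5%, with 2 RNA samples each, 0 genes were called (0.00%) by limma and the smallest adjusted p was 0.0658. An unadjusted p under 0.05 was found for 902 genes (6.88%). Slc35a2 differed by -0.19 and Tspan32 by -0.01 between the doses (1.0% minus 0.5%, log2), and for Rbmxl2 the floor, which held 3 of the 4 samples, leaves no dose difference to read. Between the pooled doses and the 3 RNA samples at 0.1%, 2 genes were called (0.0153%), Rbmxl2 at -2.11 ± 0.24 (limma adjusted p = 0.00365) and Nsd3 at 1.39 ± 0.18 (limma adjusted p = 0.00785; log2, SE). Against 0.1%, 2014 genes (15.4%) had an unadjusted p under 0.05, beside 1359 (10.4%) against control, in fits with 8 and 6 residual degrees of freedom. The comparisons against control and against 0.1% share the high-dose samples. Rbmxl2 stood at 4.90, 5.19 and 5.33 in those 0.1% samples, within the control range of 4.56 to 5.50. The other 3 arrays labelled 0.1%, replicates 1, 3 and 6, which share their RNA with 1.0% replicate 1 and were not used, stood at 3.00, 3.77 and 3.00, below that range. Slc35a2 stood at 6.66, 7.75 and 6.95 and Tspan32 at 6.25, 5.57 and 6.49 at 0.1%, each on both sides of the lowest high-dose value. For Slc35a2 all of these were above the control range of 5.83 to 6.57. For Tspan32, 6.25 and 6.49 were above the control range of 5.52 to 5.87 and 5.57 was within it. The pooled doses differed from 0.1% by 0.23 ± 0.23 in Slc35a2 and by 0.56 ± 0.21 in Tspan32 (log2, SE). Nsd3 stood at 7.76, 8.16, 8.17 and 8.26 in the high-dose samples, against 7.12, 6.61 and 6.35 at 0.1%, with the control samples between them at 7.21 to 7.62.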

How the data were processed

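The authors deposited 1 linear intensity per probe set and array for 24 Affymetrix mouse arrays. Per the labels' protocols, cDNA was made from total liver RNA with an oligo(dT) primer and transcribed into biotin-labelled cRNA. How the authors summarised and scaled the probes is not given in the sources used here, so absolute levels have no known scale, and the number of RNA samples limits the precision. Probe sets were named from the platform annotation: 34958 had 1 gene, 932 several and 9211 none, and only the first were tested; 34754 of their Entrez identifiers were in RefSeq (GRCm38.p6).

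Intensities were quantile-normalized over 24 arrays, floored at 8 and log2-transformed, and arrays of the same RNA were averaged. Pairs under an SD of 0.08 were taken as repeat hybridisations, and RNA matched less closely was averaged as well. Fold changes on this floored scale understate the change of dim transcripts. A filter removed the dimmest 40% of probe sets, leaving 27060, and the probe set with the highest mean stood for each of 13110 genes. Control probe sets (64) were left out. Differences were tested in limma 3.58.1 (R 4.3.3; lmFit, eBayes with trend = TRUE, two-sided) over 4 high-dose and 4 control RNA samples with 6 residual degrees of freedom, with Benjamini-Hochberg adjustment over all genes and calls at an adjusted p under 0.05. The dose contrast and the contrast with 0.1% used the same model with those groups added. The scripts were tested on simulated data.

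The comparison, the averaging of arrays, 29 gene lists and 12 marker lists were chosen with earlier results of these data known, and lists are described by counts and medians without a test. Named genes were called genes, the genes with the lowest unadjusted p up to 12 in each direction, the 2 members of each list with the lowest p, and a panel that held the sugar carriers, gluconeogenic, bile acid, clock, acute phase and heat shock genes. Other list members are named where their list is described. Replicate numbers of the labels did not pair the samples: correlations of deviations ran from -0.07 to 0.05 in 16 same-numbered pairs, none over 0.1. Alternatives varied the scaling, floor, filter, probe sets, variance model, averaging, the groups in the fit and the samples. The files give no detection calls or scan dates, so background and scan batches were not tested.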

Additional observations from a re-analysis of the deposited data

Results flagged for a closer look

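In 258 groups of 4 RNA samples (88 named genes and the lists), 13 values (5.04%) stood far from the other 3 of their group by Dixon's test, and chance gives about 1 in 20. At the higher doses, 0.5% replicates 1, 2, 3 and 6 were low in Dbp (5.24) and high in Fmo2 (7.15). At the same doses, 0.5% replicates 4 and 5 were high in Creb3l3 (10.94), Srebf1 (9.80) and Magea7-ps (3.38, with the others at the floor). Rbmxl2 was the only gene so marked in 1.0% replicates 2, 3, 5 and 6, at 3.13, with the others at the floor. In the control group, replicate 5 was high in Depp1 (10.59) and low in G6pc (10.89) and Khk (10.96). Control replicate 6 was high in Acaa1b (13.01) and Dhcr7 (8.79), and control replicates 2 and 4 were high in Dusp1 (10.78) and low in Oas1a (6.13).

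The RNA that carried the labels of both 0.1% and 1.0% phloridzin entered no comparison, and 2 of the called genes were above the control range in it. Slc35a2 stood at 6.87 there, against 5.83 to 6.57 in control samples, and Tspan32 at 6.54, against 5.52 to 5.87. Rbmxl2 stood at 3.36 in the same RNA, below the control range of 4.56 to 5.50.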

How the results depend on the processing

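The count of 3 genes called against control became 346 with arrays centred on medians, 14 with no scaling, 21 with only near-identical arrays averaged (6 high-dose samples against 4) and 703 with all arrays kept apart, which counts repeats of 1 RNA as replicates. It was 415 in that last setting with the replicate block, although the numbers did not pair the samples. It was 1, Rbmxl2, with a floor at 1, without the trend, with doses as separate groups, with 0.1% samples in the fit or with 1.0% replicate 1 added; 1, Hnrnpf, with a floor at 32; 2, Hnrnpf and Ephb3, with no filter; and 0 with a floor at 16 or the lowest 60% left out. It ran from 0 to 4 when 1 RNA sample was left out: 0 without control replicates 2 and 4, and 1 without 0.5% replicates 4 and 5 or 1.0% replicates 2, 3, 5 and 6. Rbmxl2 was called in 22 of the 26 settings that measured it, Slc35a2 in 10 of 27 and Tspan32 in 11 of 27. All 3 kept their direction in every one, but these settings reuse the same RNA samples. With the groups apart, leaving 1 sample out could not turn a direction. The 0 genes called between the doses became 3 with no scaling, 16 with no filter and 0 to 7 when a sample was left out (7 without 0.5% replicates 1, 2, 3 and 6). The 2 called against 0.1% became 0 with a floor at 16, 1 without the trend and 2 to 11 when a sample was left out (11 without 0.1% replicate 2). The cause of these changes was not tested. Of 41 lists, 16 kept the sign of their median relative to all genes in all 27 settings.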
